A study of Homo sapiens with 2 samples.

Results

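The broad OTX2 peaks are the regions of OTX2-bound DNA on chromosomes 1 to 22 that were at least 1500 bp long in the peak list of D283 tumorspheres. They were selected on the length that the peak caller gave them, and numbered 2627 of the 133985 peaks on these chromosomes (1.96%) and of the 137412 peaks in all. D283 is an established medulloblastoma cell line, grown here as OTX2+ control tumorspheres in a serum-free neural medium with EGF and bFGF and with no treatment. OTX2-bound chromatin was pulled down with a rabbit antibody to OTX2 in 1 ChIP library, and 1 input library of the same cells was made without antibody. The line is 1 tumour's cells, and with no replicate library each interval given here covers counting error over peaks or fragments only.

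OTX2 is a homeodomain transcription factor of the bicoid type that patterns the forebrain, midbrain and retina and is expressed in many medulloblastomas of Group 3 and Group 4. It recognises short motifs with a TAAT core, and its binding sites lie both at promoters and at distal enhancers. A narrow peak caller draws a long peak where enriched fragments follow each other without a gap, so that a broad peak can hold several binding sites, an open promoter or a stretch of an enhancer cluster, and its length does not tell these apart.

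To show the DNA under such peaks, the 250 bases before the RefSeq transcription start are given for the longest broad peaks whose summit fell in a promoter of the set searched below (MUC16, CBX5, AFF1 and H2AC8), and for CRX, a photoreceptor homeobox gene chosen after its values were seen. All are written 5′ to 3′ on the strand of the gene from RefSeq promoters of GRCh38.p14, and capitals mark the OTX2 motif TAATCC, here on the opposite strand as GGATTA. MUC16, CBX5, AFF1 and CRX start here at a RefSeq start over 1 kb from the 5′ end of the GENCODE gene record used below.
MUC16: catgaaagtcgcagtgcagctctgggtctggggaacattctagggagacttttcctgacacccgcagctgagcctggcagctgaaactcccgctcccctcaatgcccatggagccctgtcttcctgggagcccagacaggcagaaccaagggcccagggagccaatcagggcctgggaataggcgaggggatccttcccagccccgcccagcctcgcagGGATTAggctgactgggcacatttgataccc
CBX5: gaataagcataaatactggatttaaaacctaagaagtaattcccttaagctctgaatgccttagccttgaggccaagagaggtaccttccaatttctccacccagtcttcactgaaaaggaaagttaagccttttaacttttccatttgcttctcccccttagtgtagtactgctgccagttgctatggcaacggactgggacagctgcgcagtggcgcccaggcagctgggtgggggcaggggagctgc
AFF1: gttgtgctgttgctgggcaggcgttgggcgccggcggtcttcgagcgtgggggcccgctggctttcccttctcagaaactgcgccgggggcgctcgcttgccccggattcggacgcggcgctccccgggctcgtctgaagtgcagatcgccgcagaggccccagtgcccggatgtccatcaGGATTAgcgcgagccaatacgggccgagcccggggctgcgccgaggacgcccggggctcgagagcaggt
H2AC8: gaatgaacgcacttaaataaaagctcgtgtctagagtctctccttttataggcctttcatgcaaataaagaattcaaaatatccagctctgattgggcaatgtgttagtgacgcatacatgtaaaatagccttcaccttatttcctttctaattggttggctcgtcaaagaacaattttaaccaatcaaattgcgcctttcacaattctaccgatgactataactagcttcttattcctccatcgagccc
CRX: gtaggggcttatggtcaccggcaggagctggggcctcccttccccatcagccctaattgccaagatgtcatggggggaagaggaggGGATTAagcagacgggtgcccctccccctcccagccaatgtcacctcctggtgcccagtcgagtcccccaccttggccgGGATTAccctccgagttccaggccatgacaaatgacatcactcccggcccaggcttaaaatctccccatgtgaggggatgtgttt

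The MUC16 stretch (chr19:9065752-9066001, minus strand) held the motif from 31 bp before the start, and the summit of its 3628 bp peak lay 34 bp before the start with 118 ChIP fragments. MUC16 encodes a large membrane mucin. In AFF1, a subunit gene of transcription elongation complexes (chr4:87007021-87007270, plus strand), the motif began 69 bp before the start and the summit of the 3291 bp peak lay 68 bp before it, with 177 fragments. CRX (chr19:47821687-47821936, plus strand) held 2 motifs, from 164 and 85 bp before the start, and its 1761 bp peak of 104 fragments had its summit 166 bp before the start. In these 3 promoters a motif therefore stood within a few bases of the summit. The stretch of CBX5, the gene of heterochromatin protein HP1 alpha (chr12:54259587-54259836, minus strand), held 0 motifs under a 3390 bp peak of 316 fragments. That of the histone gene H2AC8 (chr6:26216671-26216920, plus strand) held 0 motifs under a 3155 bp peak of 141 fragments.

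The letters TAATCC were searched on both strands of the RefSeq promoters off chromosome 8, from 250 bases before to 50 bases after the start. Of the 505 promoters overlapped by a broad peak, 49 (9.70%, Wilson 95% interval 7.42% to 12.6%) held TAATCC, against 6.84% of the 7617 promoters in a shorter peak only, 4.45% of the 12505 in no peak and 5.46% of all 20627 searched. Among shorter peaks weighted to the same heights the share was 14.2%. The difference thus turned from higher to lower (-4.35 percentage points, 95% interval -6.96 to -1.73). These counts take any overlap, and a long peak can reach a promoter with its edge alone. For promoters that held the summit, 27.3% of 121 broad peaks had TAATCC, against 23.4% of shorter peaks at like heights. That difference was 3.45 points, with an interval spanning 0 (-3.54 to 10.4). Where the summit itself fell in a promoter, TAATCC began within 25 bp of it for 22 of 121 broad peaks (18.2%, interval 12.3% to 26.0%). The share was 6.35% of 3844 shorter peaks as they stand and 16.7% at like heights, and the interval of the latter difference spanned 0 (1.47 points, -4.87 to 7.80). The sister motif TAATCT, which differs from TAATCC in its last base only, was within 25 bp of 8 of the 121 summits (6.61%), against 3.69% of the 3844 shorter peaks as they stand and 7.31% at like heights (difference -0.64 points, -5.15 to 3.87). Besides CRX, AFF1 and MUC16, summits with TAATCC this close lay at the promoters of RPL4, HMGB1, DHX9, MATR3 and USP1, among others, named after their values were seen. Promoters in broad peaks were mostly rich in CpG (82.8% with a ratio of observed to expected CpG of at least 0.6), as were those in shorter peaks of like heights (81.6%). A match is a description of the letters. These promoters cover 80.1% of protein-coding symbols off chromosome 8, and the 164 broad peaks of that chromosome were not searched.

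Length chose these peaks, so their size is a description. The median broad peak was 1760 bp long (range 1500 to 4856 bp), against 436 bp among the 131358 shorter peaks. Height is given here in ChIP fragments over the summit, read back from the deposited pileup. The median height was 175 fragments (range 21 to 461) against 52 among shorter peaks, and the median fold enrichment over the local input was 16.1 against 6.001. Broad peaks held 6.87% of all bases in peaks. Just inside the limit, peaks of 1500 bp near ZNF281, in RAD54L2 and in NRG1 had heights of 296, 174 and 187 fragments. Just outside it, peaks of 1499 bp near ARGLU1, ABCA3 and PLOD2 had 306, 172 and 221. These are the 3 with the highest fold enrichment at each length. All 7 peaks of 1500 bp ranged from 58 to 296 fragments (median 187) and all 6 of 1499 bp from 55 to 306 (median 163). Since broad peaks were taller, they were compared with the 127863 shorter peaks in the same range of heights, within 10 groups set by the deciles of the broad peaks' height.

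**Figure D1:**
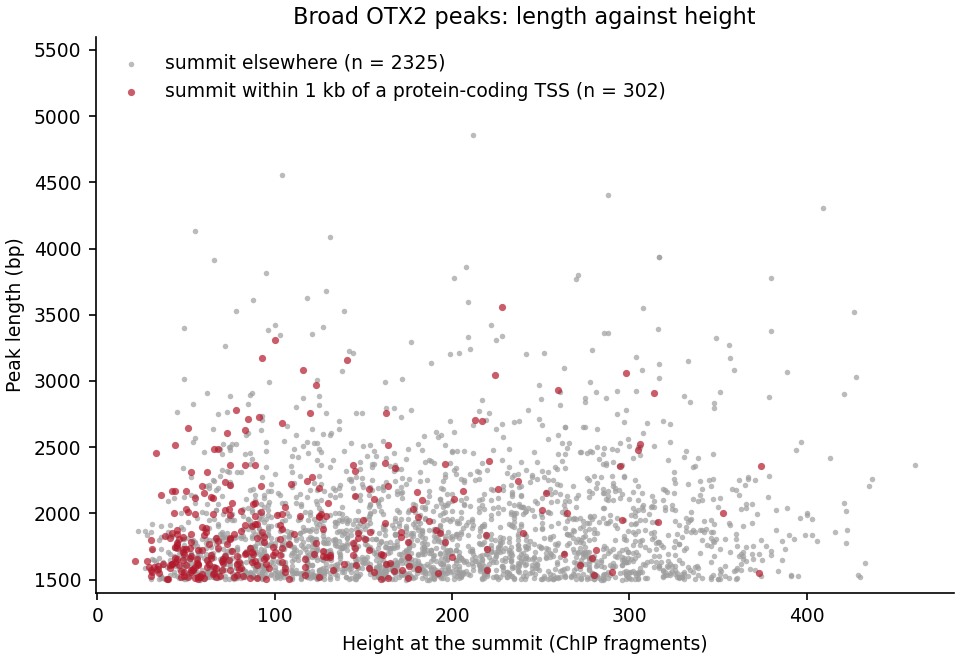
Length of each of the 2627 broad peaks in bp against its height at the summit in ChIP fragments, on linear axes. Red points are the 302 peaks with the summit within 1 kb of a protein-coding transcription start site (TSS), which crowd at low heights (median 88 fragments), and grey points are the 2325 others (median 186 fragments).

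Broad peaks lay at the start of genes more often than shorter peaks of like height. The summit was within 1 kb of a protein-coding TSS, taken as the 5′ end of the GENCODE gene record in GRCh38, for 302 of the 2627 (11.5%, Wilson 95% interval 10.3% to 12.8%), against 6.14% of all peaks. Among shorter peaks weighted to the same heights the share was 2.93%, and the difference over the 10 height groups was 8.98 percentage points (95% interval 7.78 to 10.2). The wider window, reaching 5 kb upstream and 2 kb downstream of a TSS, held 473 summits (18.0%, background 10.6%), against 6.08% at like heights, a difference of 12.5 points (11.1 to 13.9). At least 1 TSS lay inside the peak in 348 cases (13.2% against 2.09%), and 62 peaks held the TSSs of 2 gene records or more, overlapping records included. A longer peak is more likely to overlap a TSS by its length alone, which does not hold for the position of a summit.

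**Figure D2:**
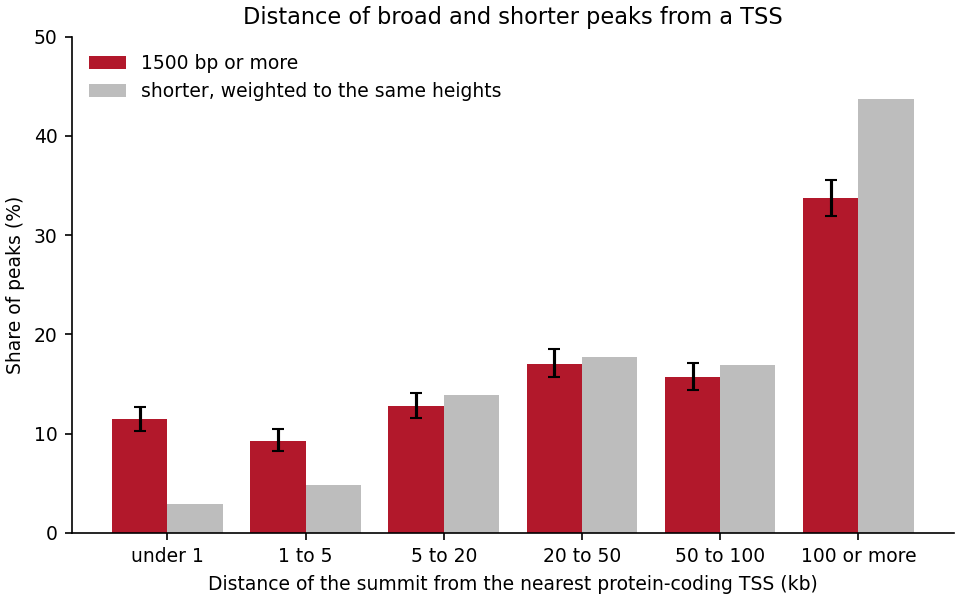
Share of peaks in percent by distance of the summit from the nearest protein-coding TSS in kb, for broad peaks (red, bars with Wilson 95% intervals) and for shorter peaks weighted to the same heights (grey). The red bars exceed the grey ones below 5 kb and fall short of them at 100 kb or more.

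The surplus ended at 5 kb. Summits from 1 to 5 kb from the TSS made up 9.25% of broad peaks against 4.84% at like heights (difference 4.63 points, 3.49 to 5.77). From 5 to 20 kb the shares were 12.8% and 13.9%, and the interval of the difference spanned 0 (-2.46 to 0.19). At 100 kb or more lay 33.8% of broad summits against 43.7% (difference -10.3 points, -12.2 to -8.47). Within 1 kb, 166 summits lay upstream and 135 downstream of the TSS.

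Over all heights, broad and shorter peaks did not differ detectably in their share in introns. Later introns and gene deserts, both defined away from the TSS, held a smaller share of broad peaks, and exons a larger one. Introns of protein-coding genes held 1277 summits (48.6%, background 47.8%), against 47.9% at like heights, and the difference was 0.67 points with an interval spanning 0 (-1.31 to 2.65). This sum covers groups that differed in sign, with -7.44 points (-13.2 to -1.39) at 21 to 65 fragments and 8.93 points (2.75 to 14.9) at 147 to 174 fragments, while the interval spanned 0 in the other 8 groups. Introns after the first, over 5 kb from any TSS, held 29.3% of broad summits against 34.4% (difference -5.43 points, -7.21 to -3.65), while first introns beyond 5 kb held 11.4% against 10.2% (1.18 points, -0.08 to 2.43). Exons held 162 summits (6.17% against 3.32%; difference 3.00 points, 2.05 to 3.96). Outside protein-coding genes lay 1188 (45.2%, background 47.5%) against 48.8%, a difference of -3.67 points (-5.65 to -1.69). Gene deserts, here intergenic DNA over 100 kb from any TSS, held 509 broad summits (19.4%) against 26.0% (difference -6.81 points, -8.36 to -5.25). The surplus of broad summits within 5 kb of a TSS by itself lowers the shares of later introns and deserts. A depletion apart from that surplus was not tested.

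Promoters of other kinds were also more frequent under broad summits. A lncRNA TSS lay within 1 kb of 182 summits (6.93% against 2.07%), and 105 of these had no protein-coding TSS as close (4.00% against 1.53%; difference 2.54 points, 1.76 to 3.31). The TSSs of at least 2 protein-coding gene records lay within 1 kb of 54 summits (2.06% against 0.438%). Among summits near a TSS, however, such summits made up 17.9% of broad and 14.9% of shorter peaks at like heights, and the interval of the difference spanned 0 (-1.38 to 7.62). Overlapping records count separately here, such as BBS5 and ENSG00000251569, with 1 summit 97 bp upstream of both. Not every such summit therefore marks a promoter shared by 2 distinct genes.

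The difference in share near the TSS, in percentage points, was largest at low height. Among the lowest of the 10 groups, with 21 to 65 fragments, 98 of 262 summits (37.4%, interval 31.8% to 43.4%) lay within 1 kb of a TSS, against 7.37% of 77242 shorter peaks. In the next group, with 66 to 91 fragments, the share was 24.2% against 5.97%, and from 175 to 201 fragments it was 6.64% against 1.83%. Among the tallest, with 314 to 461 fragments, it was 5 of 265 (1.89%, interval 0.809% to 4.34%) against 0.658%, and there the interval of the difference spanned 0 (-0.05 to 3.71). The share fell with height among shorter peaks too, and in each of the 10 groups it was higher among broad peaks. In the lowest group the shorter peaks were not as tall as the broad ones (median 38 against 51 fragments), but with groups of 1 fragment each the difference over all heights was 9.12 points.

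**Figure D3:**
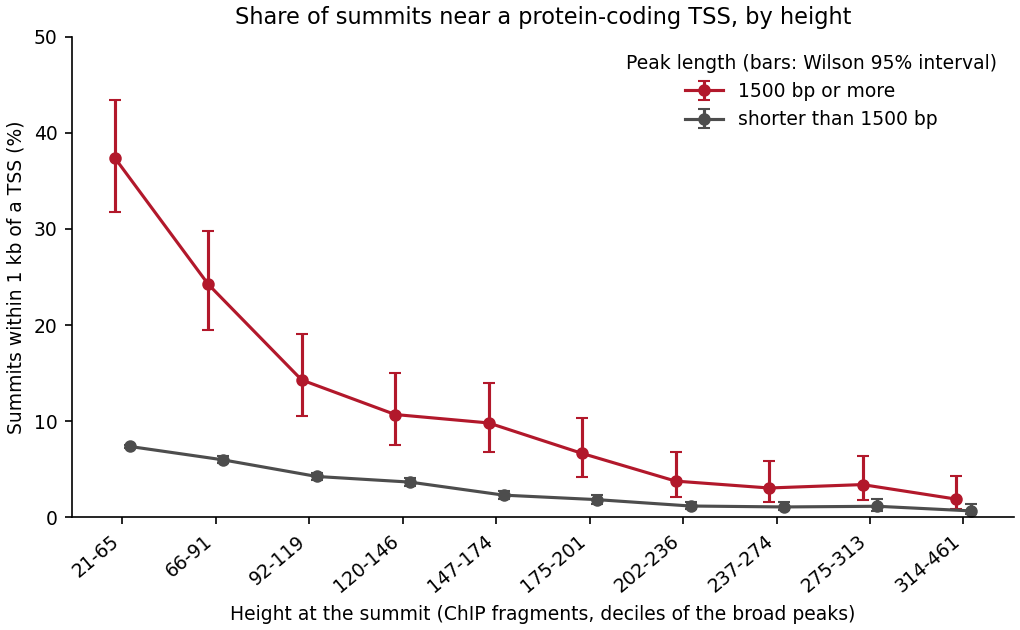
Share of summits within 1 kb of a protein-coding TSS in percent, by height at the summit in ChIP fragments (deciles of the broad peaks), for broad peaks (red) and shorter peaks (grey), with Wilson 95% intervals. The red points fall from 37.4% in the lowest group to 1.89% in the highest and lie above the grey ones throughout.

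Broad peaks near a TSS were lower than broad peaks elsewhere at a like length. Their median height was 88 fragments against 186, and their median fold enrichment 9.23 against 17.1, with median lengths of 1767.5 and 1759 bp. Those in gene deserts, which are among the peaks elsewhere, had a median height of 205 fragments and a median fold enrichment of 18.7. Of the 286 peaks that held exactly 1 TSS, 142 reached farther downstream than upstream, and the medians were 949 bp downstream and 953.5 bp upstream, so that neither side was the longer one on the whole. Their summits lay a median of 488.5 bp from the TSS, 95 of them within 250 bp.

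Broad peaks also had close neighbours and summits off their centre. Another peak edge lay under 1 kb away for 883 (33.6%) against 22.8% of shorter peaks at like heights (difference 11.1 points, 9.20 to 12.9). The summit lay over 25% of the length from the centre in 1066 (40.6%) against 6.15%. Both measures come from the same peak calls as length and are descriptions. A local input of at least 3 times its floor was found for 10.2% of broad peaks, against 4.30% of shorter ones as they stand and 11.9% at like heights. Chromosome 7 had the lowest share of broad peaks (31 of 4339 peaks, 0.714%) and chromosome 17 the highest (121 of 4606, 2.63%). The median height of all peaks was also lower on chromosome 7 (46 fragments) than on chromosome 17 (59 fragments), as was the median local input (3.99 against 6.67). Copy number and binding cannot be told apart in these values.

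The longest broad peak spanned 4856 bp over 4 histone-cluster TSSs on chromosome 1 (chr1:149884513-149889368), those of H2BC21, H2AC20, H2AC21 and BOLA1. Its summit lay in an exon of H2BC21, 1868 bp downstream of that TSS, where 212 fragments were counted (95% Poisson interval 184 to 243) and a fold enrichment of 8.72. The next was 4559 bp long and lay in an intron of PTPN13, a protein tyrosine phosphatase gene, 4429 bp upstream of the TSS of MAPK10, the neuronal JNK3 kinase, with 104 fragments (85.0 to 126). An intron of CDR2, a gene known for a cerebellar degeneration antigen, held a peak of 4405 bp with 288 fragments and a fold enrichment of 15.2. The next, in an intron of the syndecan gene SDC2, measured 4304 bp with 409 fragments. Of the 10 longest, 4 had the summit in an intron, 1 in an exon and 5 outside genes, from 1041 bp upstream of BCAT1, a branched-chain aminotransferase gene, to 481365 bp upstream of KLHL1. GPC6, a glypican gene, held a peak of 3858 bp with 208 fragments, the shortest of the 10, 1833 bp downstream of its TSS.

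The most enriched broad peaks were distal. The highest fold enrichments were 53.1 in an intron of AP1S3 (375 fragments), 51.2 in an intron of DLGAP1, a postsynaptic scaffold gene (346 fragments), and 50.4 at 257605 bp upstream of NR4A3, an orphan nuclear receptor gene (372 fragments). PARD3B, a cell polarity gene, with 50.0 at 180151 bp upstream, and ZNF385D with 47.5 in an intron followed. None of the 5 lay within 65 kb of the TSS of its nearest gene, and their local input was at or near the floor (3.99 to 4.66). Of the 5 tallest peaks, with 430 to 461 fragments, 4 lay on chromosome 8, near POU5F1B, HEY1 and, for a pair of them, WASHC5. Their local input was 19 to 34 on the pileup scale, against a median of 6.0 for broad peaks, and their fold enrichment was 9.06 to 16.1. The other lay in an intron of ACBD6, 128525 bp downstream of the TSS of LHX4, a LIM homeobox gene, with 433 fragments and a fold enrichment of 26.1.

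Among genes with the TSS within 1 kb of a broad summit, MYC, the growth-promoting transcription factor, had the longest peak, of 3558 bp with 228 fragments, a fold enrichment of 7.03 and a local input of 23. Next came WDR74, a ribosome assembly factor gene (3310 bp, 100 fragments, summit 215 bp downstream), and the LIM homeobox gene LHX8 (3176 bp, 93 fragments, summit 950 bp upstream). H2AC8 had a peak of 3155 bp, PRKAB2, a regulatory subunit of the energy sensor AMPK, a peak of 3081 bp, and C6orf163 a peak of 3063 bp. The peaks at TBC1D9 (3045 bp, 224 fragments) and GABPB1, a subunit gene of an ETS-family factor (2968 bp, 123 fragments), were of like length. RPGRIP1, which encodes a protein of the photoreceptor connecting cilium, had 260 fragments over 2935 bp with a fold enrichment of 32.0, and its summit lay 95 bp before the TSS. MLLT3, a subunit gene of the super elongation complex, had 314 fragments over 2907 bp and a fold enrichment of 38.6, the highest near a TSS among all 302. These 10 ranged from 93 to 314 fragments, against a median of 88 for broad peaks near a TSS.

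Counted by gene, 569 of 18978 protein-coding genes (3.00%) had a broad summit in the wider window around the TSS, and 356 (1.88%) had a broad summit within 1 kb. A peak of any length lay in the wider window of 10942 genes (57.7%). The gene lists described next were chosen with earlier results of these peaks known, and their shares are read against the 3.00% of all genes.

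**Figure D4:**
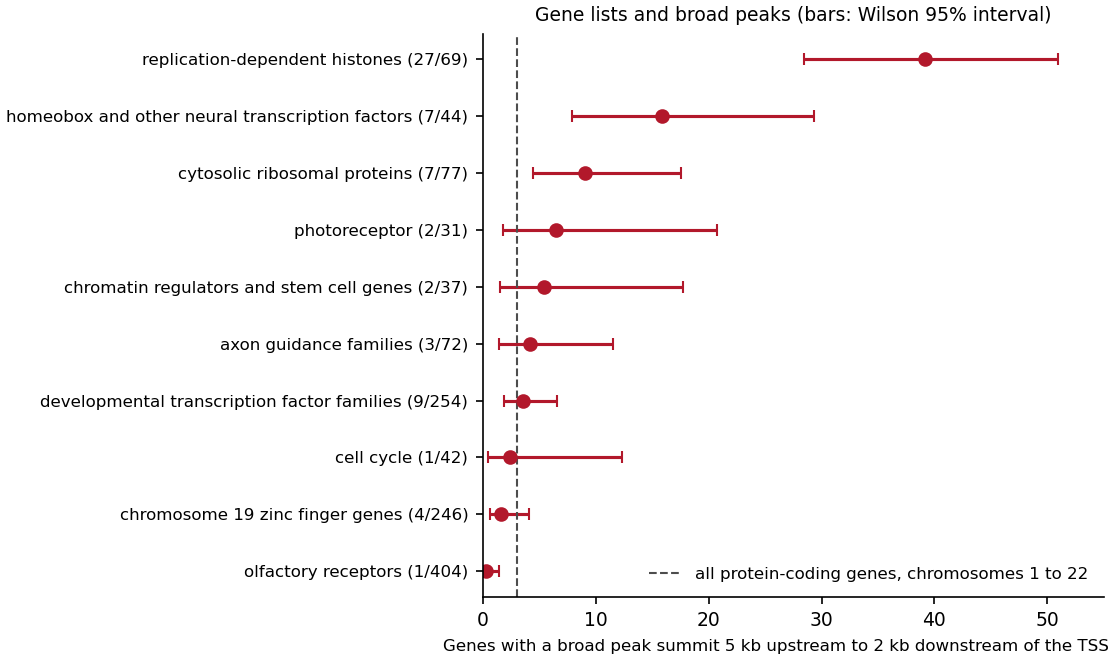
Share of the genes of each list, in percent, with a broad peak summit in the window that reaches 5 kb upstream and 2 kb downstream of the TSS, with Wilson 95% intervals and the counts beside each name. The dashed line marks the 3.00% of all protein-coding genes, and the intervals of the histone, neural transcription factor and ribosomal protein lists lie above it. The developmental transcription factor families were added after values were seen.

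The replication-dependent histones, whose clustered genes are transcribed in S phase, had the highest share. Of 69 genes, 27 (39.1%, interval 28.5% to 50.9%) had a broad summit in the window, another 27 had shorter peaks only and 15 had none. Since neighbours share peaks, these 27 genes drew on 18 distinct broad peaks, with 18 of 51 genes of chromosome 6 and 9 of 12 of chromosome 1. In H2AC8, with its 3155 bp peak, the summit lay 33 bp before the TSS. A peak of 2758 bp with 163 fragments and a fold enrichment of 20.1 lay 143 bp upstream of H3C2 and reached H2AC4. H4C3 had 219 fragments over 1840 bp and a fold enrichment of 23.7. On chromosome 1 the pair H3C14 and H3C15 are near-identical copies, with summits 103 and 104 bp upstream and 221 and 240 fragments, and so are H4C14 and H4C15, with both summits 385 bp upstream and 213 and 217 fragments. Reads cannot be told apart between such copies, so each value is uncertain.

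Of 44 homeobox and other neural transcription factor genes, 7 (15.9%, interval 7.93% to 29.4%) had a broad summit in the window. TBR1, a T-box factor of glutamatergic neurons, had the longest, of 2370 bp with 196 fragments and a fold enrichment of 24.2, with the summit 168 bp upstream. SOX4 had a peak of 2056 bp at 4875 bp upstream with 115 fragments, and SOX9, a glial and stem cell factor, a peak of 1741 bp at 588 bp upstream with 104 fragments. ID2, an inhibitor of bHLH factors, had 47 fragments over 1901 bp, and CRX and OTX2 itself had 104 and 50 fragments. Heights thus ranged from 47 to 196 fragments, and 6 of the 7 lay below the median of all broad peaks. Over 254 genes of SOX, homeobox and other developmental families, 9 (3.54%, interval 1.88% to 6.60%) had a broad summit, near the share of all genes.

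Cytosolic ribosomal protein genes had a broad summit in 7 of 77 (9.09%, interval 4.47% to 17.6%). A peak of any length was also frequent at these genes (71 of 77, 92.2%, against 57.7% of all genes). Of the genes with such a peak, 9.86% (7 of 71) had a broad one, against 5.20% over all genes with a peak. No interval was computed for this share. Whether broad peaks are more frequent here than the frequency of any peak would give was not tested. Among the 7 genes were RPL15 (2220 bp, 109 fragments), RPL3 (2206 bp, 59), RPL23A (2163 bp, 180), RPS26 (1810 bp, 75), RPL21 (1526 bp, 78) and RPL10A (1518 bp, 67). In 6 of the 7 the summit lay within 1 kb of the TSS, and RPL23A alone was taller than the median broad peak. RPL4, with a broad summit at its RefSeq start, is not counted here, since its GENCODE gene record begins elsewhere. With the TSS of any transcript counted too, the list had 8 of 77.

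In the other lists the interval of the share held the 3.00% or lay below it. Of 31 photoreceptor genes 2 had a broad summit in the window, NRL, the rod-determining leucine zipper factor (1983 bp, 129 fragments, 766 bp downstream), and CRX. The peak at NRL also held the TSS of DCAF11, to which its summit was closer (49 bp downstream). Within 50 kb of the TSS, 10 of the 31 photoreceptor genes had a broad summit (32.3%), against 11.3% of all genes. At that distance the share was 27.3% for the neural transcription factors, 26.0% for ribosomal proteins and 78.3% for histones. It was 14.3% for cell cycle genes, 13.5% for chromatin and stem cell genes, 9.72% for axon guidance genes, 7.87% for the developmental families, 6.50% for the zinc finger genes and 4.46% for olfactory receptors. Axon guidance genes had 3 of 72, at ROBO4 (1781 bp, 175 fragments, fold enrichment 26.0), SEMA6D (1762 bp, 45 fragments) and the netrin receptor gene UNC5C (1654 bp, 31 fragments). The chromatin and stem cell genes had 2 of 37, MYCN (1584 bp, 67 fragments, 421 bp downstream) and ARID1A, a SWI/SNF subunit (1509 bp, 175 fragments). Cell cycle genes had 1 of 42, E2F3 (1627 bp, 165 fragments). Zinc finger genes of chromosome 19 had 4 of 246 (1.63%), namely ZNF524, ZNF558, ZNF724 and ZNF302, and olfactory receptors 1 of 404 (0.248%), OR11L1. A peak of any length was also rare at olfactory receptors (33 of 404) but present at 169 of the 246 zinc finger genes.

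Broad peaks lay in groups at some loci. Another broad summit lay within 50 kb of 676 of them (25.7%), and 2148 of 18978 genes had at least 1 within 50 kb of the TSS, of which 2 had 6 and 16 had 5. The histone gene H2BC6 was among those with 6. With 5 were, among others, TBR1, MAB21L2, CUEDC1, SLC3A2 and MAPK10 with its neighbour PTPN13. Neighbouring genes share peaks, so these genes stand for fewer loci. TBR1 and SLC4A10 had the same 5 broad peaks, as did SLC3A2 and STX5. Peaks of any length within 50 kb numbered 21 at H2BC6, 25 at TBR1, 27 at MAB21L2, 24 at CUEDC1 and 20 at SLC3A2. At MAPK10 and at PTPN13 there were 36. Whether broad peaks lie in groups more often than shorter peaks of like height was not tested. In the window itself MAB21L2 and SETD7, a lysine methyltransferase gene, had 2 broad summits each.

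**Figure D5:**
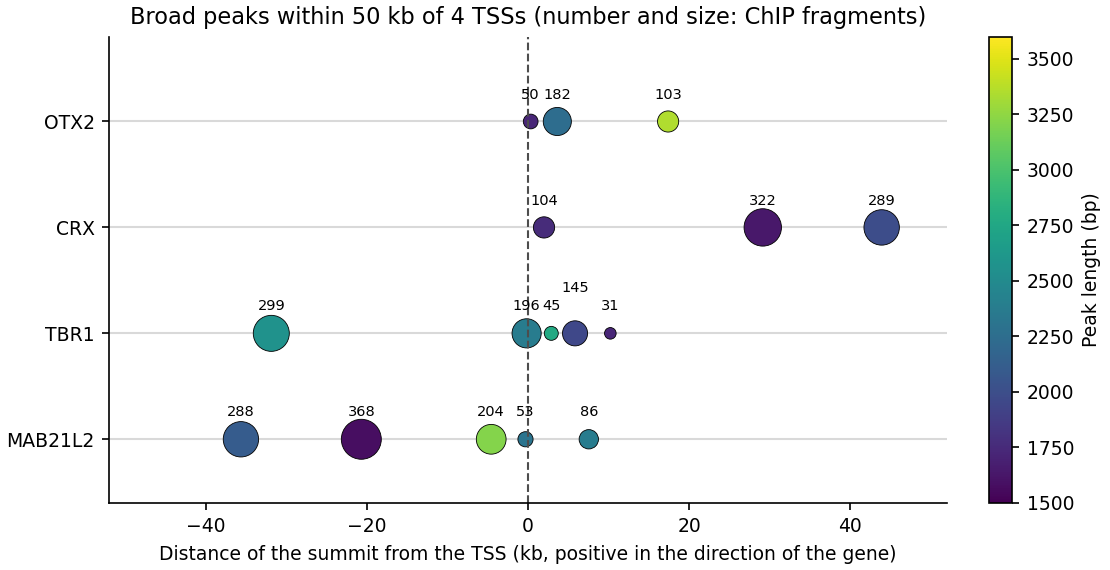
Broad peaks within 50 kb of the TSS of OTX2, CRX, TBR1 and MAB21L2, by distance of the summit from the TSS in kb (positive in the direction of the gene, dashed line at the TSS). Marker size and the number above give the height in ChIP fragments and the colour gives the length in bp. At each of the 4 genes the broad peak nearest the TSS was lower than the tallest broad peak shown. Shorter peaks are not drawn.

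At OTX2 (chr14:56799905-56816693, minus strand) 3 broad peaks lay within 50 kb of the TSS. That at the TSS (chr14:56815268-56816995, summit 336 bp downstream) had 50 fragments and a fold enrichment of 3.95. The second, 3641 bp downstream within the gene, had 182 fragments over 2241 bp and a fold enrichment of 14.98. The third, 17396 bp downstream at the end of the gene, was the longest with 3349 bp and had 103 fragments and a fold enrichment of 8.37. Their local input was alike, between 8.0 and 8.6, so the enrichment followed height. At CRX (chr19:47819779-47843330) the broad peak at the RefSeq start had 104 fragments. Those 29146 and 43905 bp downstream of the GENCODE TSS had 322 and 289 fragments at lengths of 1637 and 1990 bp. A shorter peak of 1271 bp with 197 fragments lay closest to the GENCODE TSS, 294 bp downstream.

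At TBR1 (chr2:161416297-161425870) the peak 31864 bp upstream had 299 fragments, and 4 more from 168 bp upstream to 10225 bp downstream had 196, 45, 145 and 31. At MAB21L2 (chr4:150582151-150584693), a developmental gene of the eye and midbrain that lies inside LRBA, heights were 288, 368, 204, 53 and 86 from 35633 bp upstream to 7550 bp downstream, with the 2311 bp peak of 53 fragments at the TSS. SETD7 had 196 and 105 fragments at 1168 and 3844 bp upstream.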

How the data were processed

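Fragments of 1 OTX2 ChIP and 1 input library of D283 tumorspheres were aligned by the authors with Bowtie2 2.2.4 to GRCh38, and narrow peaks were drawn on paired fragments by MACS2 2.1.0.20140616 (q cutoff 0.05, 1 fragment kept per position, broad calling off). They kept 61259377 of 84980793 ChIP fragments and 22521186 of 32292980 input fragments, a ratio of 2.72. The deposited pileup is a signal, scaled so that 1 fragment adds 0.735, and 100% of values came out whole within 0.01. The fold enrichment, also deposited, is the ratio (pileup + 1) / (local input + 1), and the −log10 q-value of each summit was deposited with it. The −log10 p was not used. Per the methods, peaks at blacklisted positions were masked, but this could not be traced in the list, which holds broad peaks with a local input of up to 127. The local input was computed from these and had a floor of 3.98.

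Gene positions were the GRCh38 positions recorded in GENCODE release 44, and no coordinate was converted. Differences are Mantel-Haenszel differences over 10 height groups (5 for motifs at summits), and other shares carry Wilson 95% intervals. Python 3.11.15, pandas 2.3.3, numpy 2.4.6 and scipy 1.17.1 were used. On simulated peaks, 3000 of 3000 position calls equalled a direct comparison, and at least 185 of 200 intervals held each simulated difference. The members and lists were chosen with earlier results of these data known. Named were the 10 longest broad peaks, the 5 highest in fold enrichment and the 5 in height, 3 on each side of the limit, the 10 longest with a summit within 1 kb of a TSS, genes with 2 broad summits in the window, up to 8 members per list and OTX2. Some genes covered by this rule are not reported here. Promoter sequences are those of RefSeq, which held 334 of the 392 genes off chromosome 8 with the TSS in a broad peak.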

Additional observations from a re-analysis of the deposited data

Results flagged for a closer look

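Peaks off chromosomes 1 to 22 were not used above. Chromosomes X and Y held 13 peaks of at least 1500 bp among 3345 (0.389%, Wilson 95% interval 0.227% to 0.664%), below the 1.96% of the other chromosomes, with lengths of 1510 to 2218 bp and a median fold enrichment of 15.7. Sequences outside the chromosomes held 5 such peaks among 82 (6.10%, interval 2.63% to 13.5%), on 3 of 27 sequences. These 5 had a median height of 391 fragments but a median fold enrichment of 2.23, with a median local input of 129.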

How the results depend on the processing

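The differences near a TSS and outside genes kept their sign under the alternatives run. Counts and shares cannot change sign, and the intron difference had an interval spanning 0, so these were not judged by direction. The alternatives did not cover exons, later introns, gene deserts or motifs. The intervals of the differences within 1 kb and from 5 kb upstream to 2 kb downstream of a TSS stayed above 0 in 13 of 13 alternatives each (5.46 to 13.6 and 7.54 to 14.2 points). That outside genes stayed below 0 in 11 of 11, and that in introns spanned 0 in 11 of 11. With the limit 250 bp lower there were 5288 broad peaks, 717 genes with a broad summit within 1 kb and 1085 in the wider window, and with a limit of 2000 bp 719, 99 and 164. Without height groups both TSS differences were smaller (5.46 and 7.54 points). With the centre of the peak in place of the summit, the share within 1 kb was 13.2% and its difference 10.7 points. With any transcript TSS they were 15.8% and 11.6 points, and the wider difference 14.2. With any bp of the peak in the window they were 16.3% and 13.6 points. That alternative favours longer peaks by their length alone, so its positive sign among the 13 adds no support. With any transcript TSS counted as well, 5 of 72 axon guidance genes, 4 of 37 chromatin and stem cell genes (10.8%, interval 4.29% to 24.7%, then above the 3.799% of all genes) and 2 of 404 olfactory receptors had a broad summit in the window, and the other 7 lists stayed within 1.5 times their count. This alternative for the lists, strata of 1 fragment, leaving out chromosome 8 and leaving out high local input were chosen after seeing the data. No paired analysis was possible because each group held 1 library. The input, at 22521186 fragments, limits the precision of fold enrichment, the spread between cultures is not known, and the sequence under most broad peaks was not analysed here.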

Other observations

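Of 1461 RefSeq hairpins on chromosomes 1 to 22, 75 overlapped a peak of any length and 4 a broad one, namely MIR2682, MIR5091, MIR4734 and MIR4755. These 4 are 5.33% of the 75, beside the 6.87% of peak bases that lay in broad peaks and the 5.20% of protein-coding genes with a peak in the window that had a broad one.

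By length class, the share of summits within 1 kb of a TSS rose from 4.16% of peaks under 250 bp to 11.1% of those in the 250 bp above 1000 bp, while the median height rose from 29 to 129 fragments. Above that length it changed little, with 11.4% from 1500 to 2000 bp, 11.9% from 2000 to 3000 bp and 9.86% of the 71 peaks of 3000 bp or more. The share with another peak under 1 kb away went on to rise, from 26.6% in that class to 50.7% of the 71 longest. The share in introns lay between 47.2% and 48.9% in all classes. Among broad summits near a TSS, 77 of 302 (25.5%) also had a lncRNA TSS within 1 kb, against 18.8% of shorter peaks at like heights (difference 6.87 points, 95% interval 1.83 to 11.9).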
